A study of Arabidopsis thaliana with 6 samples.

Results

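The genes described here lie in the 10 flanks of the Arabidopsis thaliana pericentromeres, the stretches on either side of each of the 5 centromere cores where the chromosome passes into its arms. A gene belonged to the set if a probe set naming only that gene was on the array and its locus number fell within a flank. Locus numbers follow the order of genes along a chromosome. The windows were AT1G31000 to AT1G34999 and AT1G44501 to AT1G48000 on chromosome 1, AT2G03600 to AT2G04499 and AT2G13501 to AT2G16600 on chromosome 2, and AT3G27700 to AT3G29499 and AT3G44501 to AT3G47500 on chromosome 3. On chromosome 4 they were AT4G03400 to AT4G03999 and AT4G08501 to AT4G10200, and on chromosome 5 AT5G25600 to AT5G27699 and AT5G36501 to AT5G40200. These windows held 1128 of the 13355 genes measured. Within them, membership was set by locus number, not by expression, but the windows themselves were chosen with earlier results of these data known. Another 1147 measured genes lay in the cores between the flanks and 10989 in the arms.

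RNA was measured in seedlings of 3 genotypes, with 2 Affymetrix arrays each: wild type (WT) and the mutants bin4-1 and bin4-2. BIN4 is a component of the plant topoisomerase VI complex, an enzyme that passes one DNA duplex through another and that Arabidopsis needs for endoreduplication, the repeated copying of the genome without cell division. The labels give neither age nor growth condition, and do not say whether the arrays of 1 genotype stand for separate plantings. Each p-value below thus refers to array-to-array spread, possibly of technical origin, and 2 arrays a genotype set the limit of precision.

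Around a plant centromere, heterochromatin is dense and carries DNA methylation and histone H3 lysine 9 dimethylation over transposons and satellite repeats. In the flanks this compact chromatin gives way to open chromatin, and active genes sit between transposons, pseudogenes and clusters of duplicated genes. Mutants of several silencing factors are known to release repeats in the core, while most genes of the flanks are ordinary plant genes with roles in photosynthesis, defence, metabolism and growth.

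RefSeq lists 2166 protein-coding genes in the 10 windows, and 931 of them were measured. The other members were 196 pseudogenes and 1 long non-coding RNA. The left flank of chromosome 1 gave 209 genes, the right flank of chromosome 5 177, the right flank of chromosome 2 164 and the right flank of chromosome 3 152. The smallest sets were the left flanks of chromosome 2, with 38 genes, and of chromosome 4, with 45. In 61 members the probe set carried the manufacturer's suffix for possible detection of more than 1 transcript.

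The median log2 intensity over all probe sets lay between 4.70 and 4.75 on the 6 arrays. Over the flank genes it was 3.40 to 3.42 on the WT arrays and 3.30 to 3.37 on the mutant arrays. BIN4 itself, which lies in an arm, read 3.78 and 3.93 in WT, 3.30 and 3.35 in bin4-1 and 2.92 and 3.05 in bin4-2, so that all 4 mutant arrays lay below both WT arrays. Its log2 change was -0.53 ± 0.11 (SE) in bin4-1 and -0.87 ± 0.11 in bin4-2 (limma adjusted p = 0.0015 and 3.18e-05). Where the probes lie relative to the mutations was not examined. Of the tissue markers chosen for a check, the root hair expansins EXPA7 and EXPA18 averaged 4.82 and 5.75 in WT. In the mean of both alleles they were lower (log2 change -0.39 ± 0.10 and -1.27 ± 0.10, limma adjusted p = 0.00684 and 5.77e-07). EXPA7 passed in bin4-2 (-0.57, adjusted p = 0.00163) and not in bin4-1 (-0.21, adjusted p = 0.174). Whether the mutants differed in tissue make-up was not tested, nor was the part of any such difference in the results below. The seed marker M17 read 2.45 in WT, below the 5th percentile of all genes (2.59). No green shoot marker and no flower marker had a gene-specific probe set here, so the shoot part of the label was not checked with them.

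In both mutants more flank genes were lower than higher than in WT, and most genes did not pass the test. In bin4-1, 168 of 1128 flank genes were higher (14.9%) and 260 lower (23.0%) at a limma adjusted p below 0.05 over all genes, where the background over all genes was 22.0% higher and 25.0% lower. In bin4-2, 163 were higher (14.5%) and 289 lower (25.6%), against a background of 21.1% and 26.6%. Averaged over both alleles, 170 flank genes were higher (15.1%), 310 were lower (27.5%) and 648 did not pass. Part of the surplus of lower genes lay among genes of low signal. Of 598 flank genes with a mean log2 intensity below 3.5 over the 6 arrays, 94 were lower and 14 higher. Only 3 of these lower genes and 1 of the higher ones reached 2-fold. Between 3.5 and 5, 106 flank genes were lower and 52 higher, and between 5 and 7, 81 were lower and 65 higher. At 7 and above 29 were lower and 39 higher. The background for the average over both alleles was 23.2% higher and 28.8% lower. The share of flank genes that were lower was thus close to the background and the share that were higher stood below it, and neither difference was tested.

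Large changes were split almost evenly. At 2-fold or more, 68 of 1128 flank genes were higher and 70 lower in the mean of both alleles. The background was 7.17% and 6.66% of all genes. The median log2 change was -0.11 over the flanks and -0.08 over all genes. The single changes ran from -3.52 to 4.60. In bulk seedlings, fewer cells of a type and less RNA per cell cannot be told apart, and this holds for every gene below.

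The 10 flanks were not alike in their counts. In the right flank of chromosome 1, 29 of 71 genes were lower (40.8%) and 5 higher (7.04%). In the left flank of chromosome 5, 30 of 94 were lower and 18 higher, and in the right flank of chromosome 3, 39 of 152 were lower and 31 higher. The left flank of chromosome 4 had 9 genes lower (20.0%) and 2 higher (4.44%) of 45, and none of them reached 2-fold. In that flank 27 of the 45 genes were pseudogenes, and its median log2 intensity of 2.71 was the lowest of the 10 flanks. The background over all genes was 28.8% lower and 23.2% higher. The median log2 change was between -0.13 and -0.09 in each of the 10 flanks, so the counts differed more than the typical gene did.

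**Figure D1:**
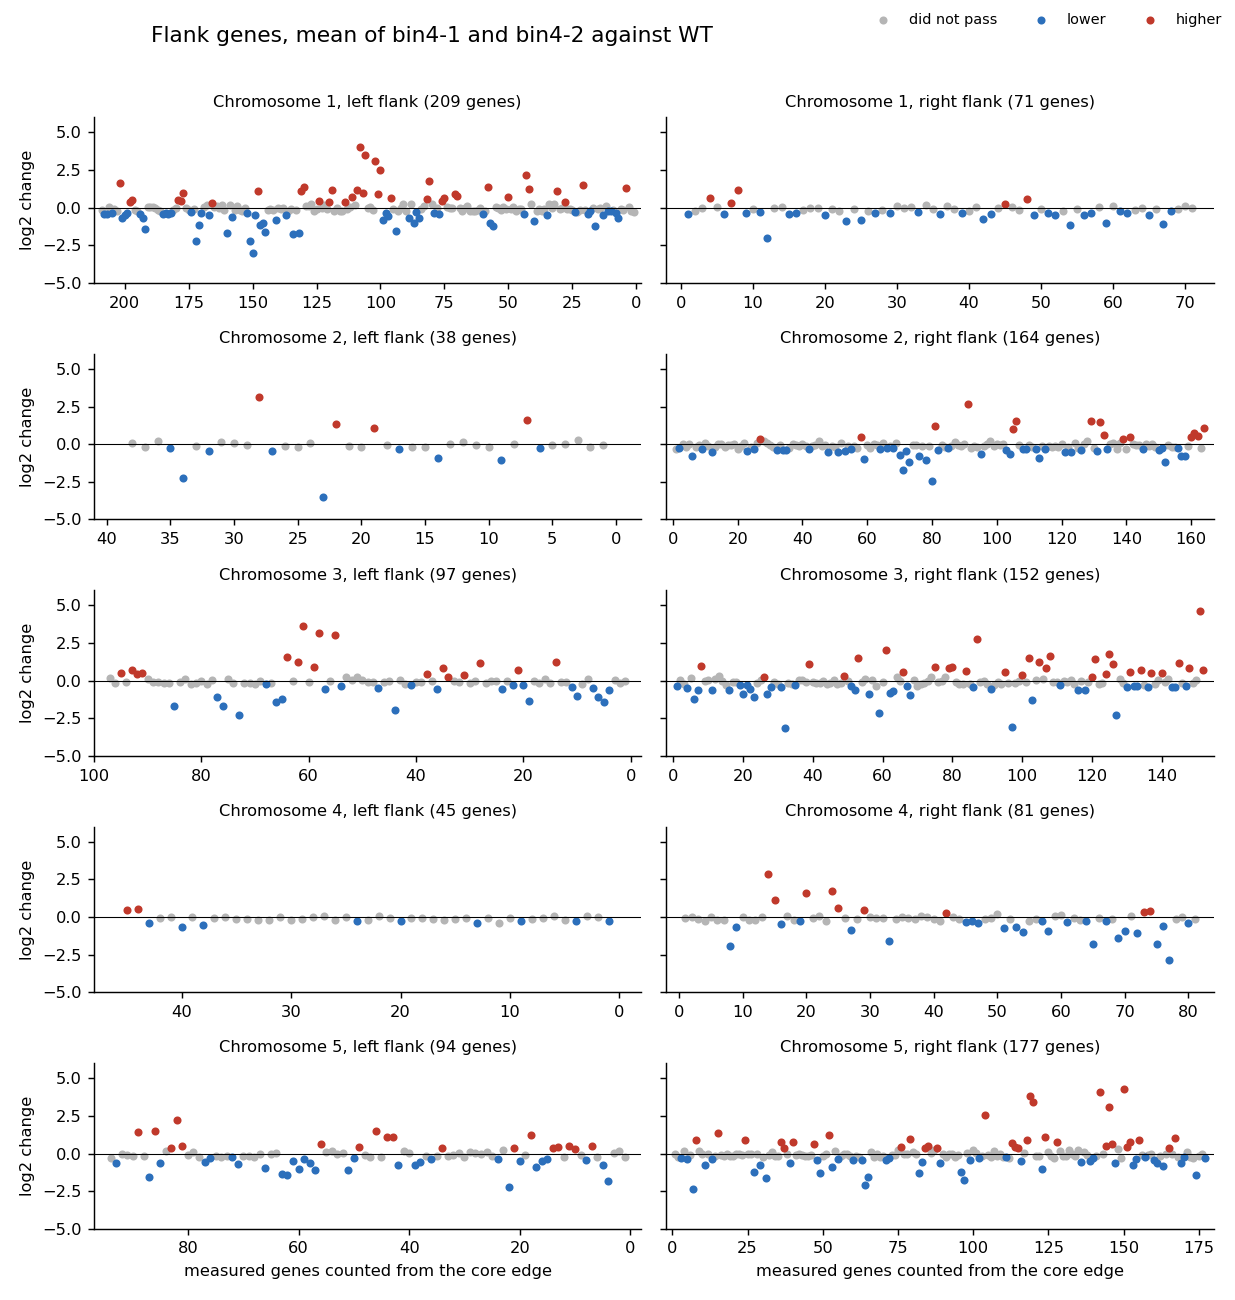
Log2 change of each flank gene in the mean of bin4-1 and bin4-2 against WT (vertical axis) by its order among the measured genes counted from the core edge (horizontal axis), with 1 panel a flank and colour for genes that passed as higher, passed as lower or did not pass. Rises and falls stood side by side in most flanks. The left flank of chromosome 4, where 27 of 45 genes are pseudogenes and signals are low, had no change of 2-fold or more.

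Pseudogenes and protein-coding genes of the flanks were counted apart. Of 196 pseudogenes, 2 were higher (1.02%), 30 lower (15.3%) and 164 did not pass. Pseudogenes of the cores were close to this, with 1.01% higher and 14.0% lower, and those of the arms had 7.14% higher and 15.7% lower. The background over all genes was 23.2% higher and 28.8% lower. Among the 931 protein-coding genes, 168 were higher (18.0%) and 280 lower (30.1%). Probe sets of pseudogenes gave low signals, and 183 of the 196 averaged below a log2 intensity of 3.5. Below that signal 1.09% of pseudogenes were higher and 13.1% lower, beside 2.90% and 16.9% of protein-coding flank genes, and the difference was not tested. The pseudogene AT3G47320 read 2.28 and 2.49 in WT, 3.48 and 3.51 in bin4-1 and 3.72 and 3.53 in bin4-2. All 4 mutant arrays lay above WT (log2 change 1.17 ± 0.10, adjusted p = 1.14e-06). The other pseudogene that rose, AT2G14650, read 2.80 and 3.32 in WT and 3.35 to 3.7 in the mutants. Its change was 0.51 ± 0.15 (adjusted p = 0.0113). These 2 genes were named after their values were seen.

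Fewer genes passed at low signal, so the regions were also compared within classes of mean log2 intensity over the 6 arrays. These classes order probe sets by brightness and do not rank the genes by amount of RNA. Since 4 of the 6 arrays were mutant, a gene that rose tended towards a brighter class and a gene that fell towards a dimmer one. Among protein-coding genes between 3.5 and 5, 43.7% of 229 flank genes were lower, beside 36.8% in the arms and 53.3% in the cores. Between 5 and 7, 40.1% of 202 flank genes were lower, beside 33.4% in the arms and 57.7% in the cores. At 7 and above, 33.7% of 86 were lower, beside 27.2% and 52.3%. In each of these 3 classes the share of lower genes stood between that of the arms and that of the cores.

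Rises ran the other way in the middle classes. Between 3.5 and 5, 22.7% of protein-coding flank genes were higher, beside 25.7% in the arms and 12.1% in the cores. Between 5 and 7 the shares were 32.2%, 38.0% and 16.3%. At 7 and above they were 45.3% in the flanks, 44.1% in the arms and 25.0% in the cores, so the flanks stood beside the arms there. Below 3.5, 2.90% of 414 flank genes were higher and 16.9% lower, beside 5.16% and 18.9% in the arms and 1.67% and 20.0% in the cores, so the flank share of lower genes stood below both. No test of these differences between regions was made.

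**Figure D2:**
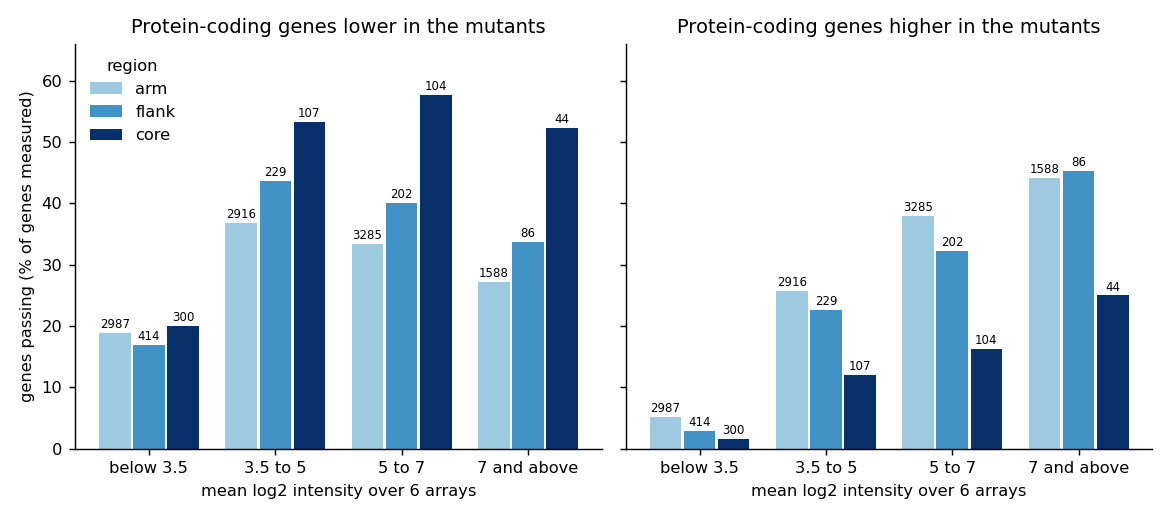
Share of measured protein-coding genes that passed as lower (left) or higher (right) in the mean of both mutants against WT, as a percentage (vertical axis) within classes of mean log2 intensity (horizontal axis). Bars stand for arms, flanks and cores and the number over each bar is its gene count. From 3.5 upwards the flank bars for lower genes lie between the arm and the core bars.

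Distance from the core was read as the order of measured genes. Each flank was cut into 3 parts of nearly equal gene number, and the inner parts, next to the cores, held 379 genes together, of which 11.1% were higher and 25.9% lower. In the middle parts 17.8% of 377 were higher and 25.5% lower, and in the outer parts 16.4% of 372 were higher and 31.2% lower. The inner parts included 98 pseudogenes. Among their protein-coding genes 14.9% were higher and 31.0% lower, beside 20.7% and 27.3% in the middle parts and 18.1% and 32.0% in the outer parts. The background over all genes was 23.2% higher and 28.8% lower, and no difference between parts or edges was tested. At the boundaries, the 10 genes just inside the inner edge of the flanks had a median log2 change of -0.23, with 3 lower and 0 higher. Their WT means were low, from 2.26 to 3.54. The 10 just outside this edge, in the cores, had a median of -0.10, with 2 lower and 1 higher. The 10 genes just inside the outer edge had a median of 0.02, with 3 higher and 1 lower, and the 10 just outside, in the arms, -0.10, with 3 higher and 3 lower.

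The 8 largest rises included 2 genes for calcium-binding proteins and 2 for proteases. AT3G47480, an EF-hand calcium-binding protein in the right flank of chromosome 3, read 3.83 and 4.35 in WT, 8.62 and 8.71 in bin4-1 and 8.82 and 8.63 in bin4-2. WT and mutant arrays were far apart. The log2 change was 4.60 ± 0.13 in the mean of both alleles, a 24.3-fold rise (adjusted p = 1.91e-10). AT5G39670 (CML45), a calmodulin-like calcium sensor, read 3.44 and 3.64 in WT and 7.79 to 7.88 in the 4 mutant arrays. It rose 19.7-fold (4.30 ± 0.09, adjusted p = 5.11e-11). AT5G39520, whose function is not established, rose from 3.24 and 3.81 to 7.52 to 7.65, a change of 4.06 ± 0.14.

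SBT3.5 and SBT3.3 are subtilases, secreted serine proteases, and SBT3.3 is known for a role in immune priming. They lie in the left flank of chromosome 1 in the longest run of neighbouring rises, AT1G32920 to AT1G32960, where all 4 measured genes rose among 6 RefSeq genes. SBT3.5 read 5.06 and 5.29 in WT, 9.12 and 9.14 in bin4-1 and 9.33 and 9.25 in bin4-2. Its mutant arrays lay far above WT and its mean change was 4.04 ± 0.10, 16.4-fold (adjusted p = 7.2e-11). SBT3.3 read 3.22 and 3.95 in WT and 7.02 to 7.11 in the mutants, a change of 3.5 ± 0.16, 11.3-fold. The subtilase between them, AT1G32950, read 3.55 and 3.62 in WT and 4.49 to 4.63 in the mutants, a change of 0.95 ± 0.09 (adjusted p = 2.85e-06). AT1G32920, at the start of the run, changed by 1.15 ± 0.09. The 3 subtilases are related in sequence, and whether their probe sets detect each other's transcripts was not examined.

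**Figure D3:**
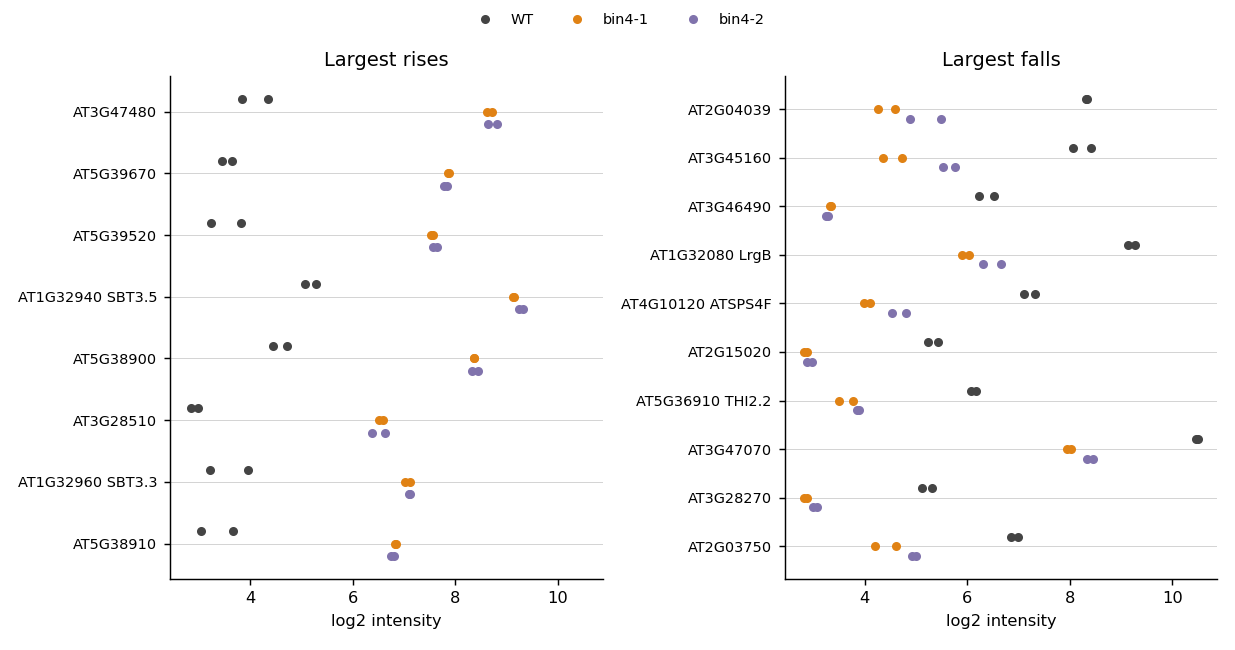
Log2 intensity on each of the 6 arrays (horizontal axis) for the flank genes with the largest rises (left) and falls (right) of either mutant against WT, with 1 point an array and colour for the genotype. For the 8 rises every mutant array lies above both WT arrays and for the 10 falls every mutant array lies below both, as the choice of these genes largely required.

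To order the members by role, 9 lists covering 256 loci of the windows were used, and 72 of the 256 were measured, so each statement covers measured genes only. The lists were chosen with earlier results of these data known. Their shares beside the background, here and below, are therefore descriptive, and no list was tested as a set. Of 18 measured redox and detoxification genes, 11 were higher and 2 lower in bin4-1, in bin4-2 and in their mean, with a median log2 change of 1.04 in the mean. These were 61.1% and 11.1%, beside a background of 23.2% higher and 28.8% lower, and 9 of the 11 rose at least 2-fold. The 18 include 5 AAA-ATPase genes, which gave 3 of the 11 rises and are not redox enzymes.

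The list's peroxidases, which use hydrogen peroxide to oxidise cell-wall and defence compounds, did not move as 1 group. AT5G39580 read 4.0 and 4.44 in WT, 7.58 and 7.60 in bin4-1 and 7.01 and 7.11 in bin4-2. It rose 8.63-fold (3.11 ± 0.12, adjusted p = 1.6e-09), and the bin4-1 arrays were the highest. Prx37 read 4.74 and 5.05 in WT, 7.85 and 7.97 in bin4-1 and 7.61 and 7.60 in bin4-2, a 7.25-fold rise. Its neighbour AT4G08780 rose 2.16-fold (1.11 ± 0.11). The peroxidase AT3G28200 went the other way, from 6.57 and 6.75 in WT to 5.52 to 5.74 in the mutants, and fell 2.1-fold (-1.07 ± 0.10, adjusted p = 2.38e-06).

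AAA-ATPases use ATP to unfold or remodel proteins, and 5 measured genes of this family stand together in the left flank of chromosome 3. AT3G28510 read 2.84 and 2.99 in WT, 6.60 and 6.51 in bin4-1 and 6.62 and 6.38 in bin4-2. It rose 12.2-fold (3.61 ± 0.10, adjusted p = 1.62e-10). AT3G28540 and AT3G28580 rose 8.85-fold and 8.30-fold (3.15 ± 0.09 and 3.05 ± 0.11). AT3G28600 read 2.65 and 2.68 in WT and 2.75 to 3.01 in the mutants and did not pass (0.22, 95% interval 0.02 to 0.42, adjusted p = 0.0667). AT3G28610 did not pass either (0.07, interval -0.12 to 0.27). The last pair gave low signals on every array.

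UDP-glycosyltransferases attach sugars to hormones, flavonoids and foreign compounds. In the right flank of chromosome 3, UGT76E12 read 3.17 and 3.35 in WT, 4.23 and 4.27 in bin4-1 and 4.72 and 4.79 in bin4-2, so the bin4-2 arrays were the highest. It rose 2.37-fold (1.25 ± 0.09, adjusted p = 3.31e-07). AT3G46690 rose 3.1-fold (1.63 ± 0.11) and AT3G46680 1.75-fold (0.81 ± 0.10). UGT76E11, placed among them, read 4.98 and 5.19 in WT and 5.11 to 5.36 in the mutants, so the groups overlapped. Its change was 0.13 with a 95% interval of -0.09 to 0.35, and AT3G46700 changed by -0.09 with an interval of -0.28 to 0.10. On chromosome 2, UGT73B4 and UGT73B5 rose 2.96-fold and 1.97-fold.

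Germin-like and disulfide-exchange genes outside the lists were also among the largest rises. AT5G38900, a thioredoxin-fold protein of the DSBA type, read 4.72 and 4.44 in WT, 8.36 and 8.37 in bin4-1 and 8.33 and 8.45 in bin4-2. It rose 13.9-fold (3.80 ± 0.10, adjusted p = 1.24e-10), and next to it the germin-like gene AT5G38910 rose from 3.67 and 3.03 to 6.74 to 6.84, 11-fold. Both alleles reached nearly the same level in each of the 2 genes.

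Immune genes of the flanks passed in both directions. Of 16 measured, 7 were higher and 3 lower in bin4-1, and 6 were higher and 3 lower in bin4-2. In the mean of both alleles 7 were higher (43.8%) and 3 lower (18.8%), beside a background of 23.2% higher and 28.8% lower, and the median log2 change was 0.01. AT4G08850 (MIK2), a leucine-rich repeat receptor kinase that senses peptides at the cell surface, read 6.35 and 6.46 in WT, 8.16 and 8.19 in bin4-1 and 7.86 in both bin4-2 arrays. All mutant arrays were above WT, and it rose 3.06-fold (1.61 ± 0.09, adjusted p = 2.29e-08). Intracellular receptors of the TIR type changed less: AT5G36930 rose 1.86-fold (0.90 ± 0.12), AT5G38350 1.30-fold and AT4G09420 1.18-fold, AT1G47370 fell 1.27-fold and AT4G09430 gave 0.03 ± 0.11. AT3G46710 and AT3G46730, receptors of the coiled-coil type, gave -0.12 ± 0.09 and -0.02 ± 0.10 and did not pass. The call of AT4G09420 was lost without any 1 of 5 arrays (adjusted p up to 0.137, without bin4-1 replicate 1), and that of AT1G47370 without either WT array (0.0537 and 0.0519) or bin4-1 replicate 2 (0.0502). AT1G47370 gave low signals, 3.04 and 3.03 in WT and 2.58 to 2.86 in the mutants, all below the 25th percentile of all genes in WT (3.18). Its call was also lost with quantile normalization (0.0508) and with log2 of the value plus 16 (0.0771).

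THI2.2, a thionin, is a small antimicrobial peptide gene and was the largest fall of the immune list. It read 6.17 and 6.08 in WT, 3.5 and 3.77 in bin4-1 and 3.86 and 3.89 in bin4-2. With every mutant array below WT it fell 5.15-fold (-2.37 ± 0.10, adjusted p = 3.12e-09).

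AIG1-like GTPases, named after an avirulence-induced gene, form a cluster of 6 measured genes in the left flank of chromosome 1. AT1G33950 read 3.35 and 3.38 in WT, 5.53 and 5.44 in bin4-1 and 5.66 and 5.58 in bin4-2, a 4.56-fold rise (2.19 ± 0.09, adjusted p = 2.22e-09). AT1G33970 rose 2.41-fold (1.27 ± 0.10). AT1G33930 read 3.12 and 3.07 in WT and 2.62 to 2.75 in the mutants, and fell 1.32-fold (-0.41 ± 0.09, adjusted p = 0.00225). The other 3 did not pass: AT1G33890 changed by -0.24 (95% interval -0.44 to -0.03), AT1G33900 by -0.11 (-0.37 to 0.14) and AT1G33910 by -0.10 (-0.39 to 0.19). Without bin4-2 replicate 1, AT1G33890 passed as lower (adjusted p = 0.0278). By locus number, the genes that rose, AT1G33950 and AT1G33970, came after all the measured members that did not.

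**Figure D4:**
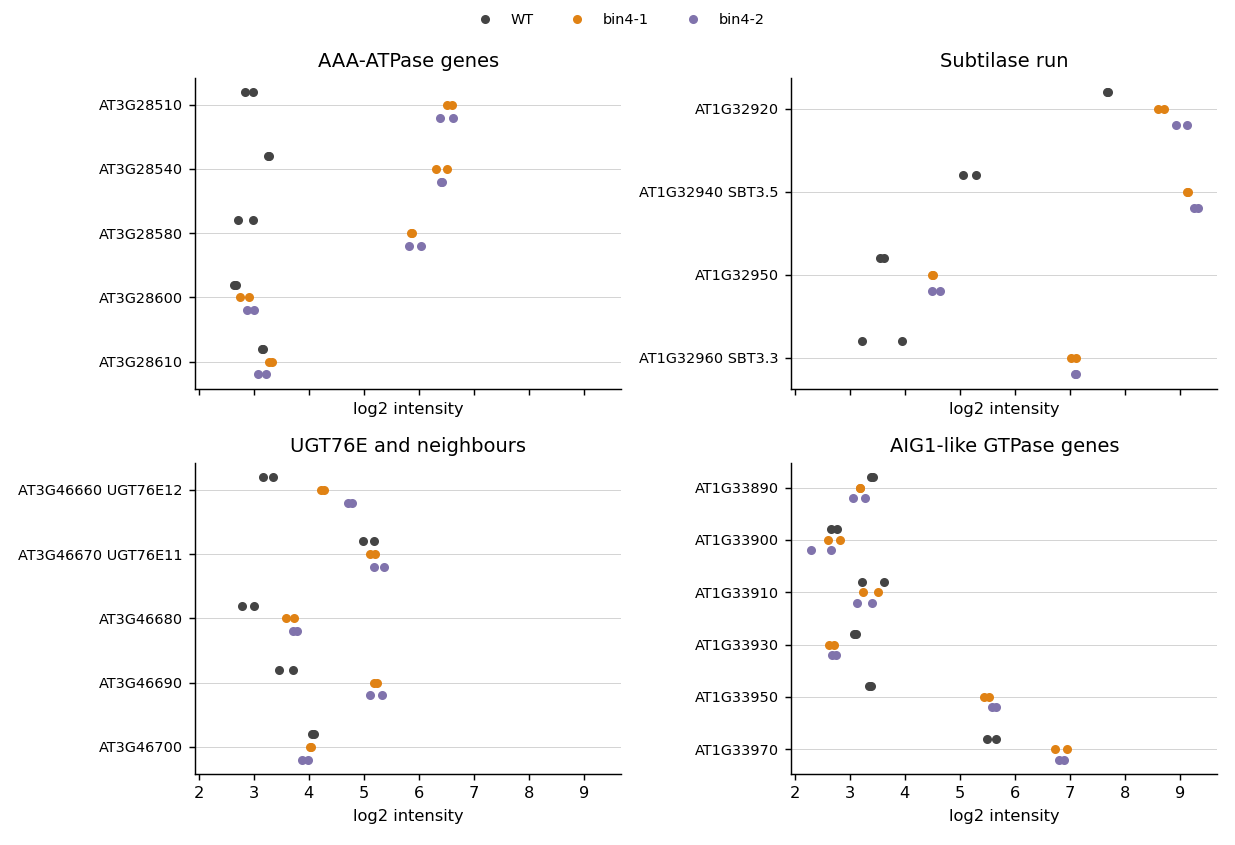
Log2 intensity on each of the 6 arrays (horizontal axis) for 4 clusters of neighbouring genes: AAA-ATPases, the subtilase run, UDP-glycosyltransferases and AIG1-like GTPases, with 1 point an array and colour for the genotype. In 3 of the 4 clusters some members are shifted in every mutant array while neighbours overlap with WT or lie close to it, and in the subtilase run all 4 genes are shifted.

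Of 33 listed photosynthesis and chloroplast loci of the flanks, 6 were measured, and these fell. All 6 measured members of the list were lower in each allele and in the mean, with a median log2 change of -1.98 in the mean, and 5 of the 6 fell at least 2-fold. The background of lower genes was 28.8%. AT2G04039, which encodes the NdhV subunit of the chloroplast NAD(P)H dehydrogenase complex, read 8.32 and 8.33 in WT, 4.26 and 4.59 in bin4-1 and 4.89 and 5.48 in bin4-2. It was the largest fall of the flanks in the mean of both alleles, 11.5-fold (-3.52 ± 0.15, adjusted p = 3.32e-09). LrgB (PLGG1), the chloroplast transporter of glycolate and glycerate in photorespiration, read 9.14 and 9.27 in WT, 5.90 and 6.03 in bin4-1 and 6.30 and 6.67 in bin4-2. It fell 7.89-fold (-2.98 ± 0.11, adjusted p = 1.61e-09).

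PRK, phosphoribulokinase of the Calvin cycle, read 11.03 and 11.02 in WT, 8.62 and 8.61 in bin4-1 and 8.97 and 8.99 in bin4-2. It fell 4.68-fold (-2.23 ± 0.09, adjusted p = 1.55e-09), with the bin4-1 arrays lowest. AT1G32470, the H protein of the glycine decarboxylase complex in photorespiration, fell 3.31-fold. PWD, a kinase that phosphorylates starch for its breakdown, fell 2.17-fold, and the thioredoxin ATHM2 fell 1.60-fold. Outside the list, AT3G47070, the thylakoid phosphoprotein TSP9, read 10.46 and 10.50 in WT, 8.03 and 7.94 in bin4-1 and 8.33 and 8.45 in bin4-2, and fell 4.89-fold.

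Further large falls came from metabolism and from genes outside the role lists. ATSPS4F, a sucrose-phosphate synthase, read 7.33 and 7.10 in WT, 3.98 and 4.10 in bin4-1 and 4.54 and 4.80 in bin4-2, a 7.27-fold fall (-2.86 ± 0.11, adjusted p = 1.37e-09). AT3G46490, an oxygenase of the 2-oxoglutarate-dependent family, read 6.23 and 6.52 in WT and 3.24 to 3.34 in the mutants, and fell 8.44-fold. The sulfotransferase AT2G03750 fell 4.70-fold. In each of these 3 genes the WT and mutant arrays did not overlap. AT2G15020 and AT3G28270, both outside the role lists, fell 5.47-fold and 4.86-fold to log2 values between 2.82 and 3.07, all below the 25th percentile of all genes in WT (3.18).

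Of 5 measured genes for nitrogen, sugar and amino acid metabolism, 2 were higher and 2 lower in each allele and in the mean (40.0% each way), beside a background of 23.2% higher and 28.8% lower in the mean. AT2G04400, an enzyme of tryptophan synthesis (indole-3-glycerol phosphate synthase), read 7.68 and 7.54 in WT, 9.29 and 9.22 in bin4-1 and 9.19 and 9.29 in bin4-2. It rose 3.11-fold (1.64 ± 0.09, adjusted p = 3.05e-08). IVD, isovaleryl-CoA dehydrogenase of leucine breakdown, rose 2.14-fold. BGLU42, a beta-glucosidase, fell 1.25-fold, ATSPS4F fell as above, and the acetyl-CoA synthetase ACS gave 0.14 ± 0.09 and did not pass. The call of BGLU42 was lost without WT replicate 2 (adjusted p = 0.0891).

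Stress-protection genes of the cold, heat, drought and touch list were higher in 3 of 5 measured members in each allele (60.0%), where the background was 22.0% in bin4-1 and 21.1% in bin4-2. AT2G03850, a gene of the late embryogenesis abundant type, read 2.95 and 3.04 in WT, 6.02 and 6.17 in bin4-1 and 6.11 and 6.27 in bin4-2. It rose 8.87-fold (3.15 ± 0.10, adjusted p = 2.62e-10). AT5G38710, a proline dehydrogenase, rose 5.95-fold and AtLEA4-1 2.6-fold. AT2G03740 was 1.21-fold lower in the mean (adjusted p = 0.0339) and passed in bin4-1 and not in bin4-2, and its call was lost without WT replicate 1 (0.268), bin4-1 replicate 2 (0.103) or bin4-2 replicate 2 (0.0789). SWEET4, a sugar transporter, changed by -0.14 ± 0.09 and did not pass.

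Cell-wall genes passed in shares near the background in the mean of both alleles. Of 8 measured, 2 were higher and 1 lower in bin4-1, 3 higher and 2 lower in bin4-2, and 2 higher and 2 lower in the mean (25.0% each way), beside a background of 23.2% higher and 28.8% lower. EXO (EXORDIUM), which promotes growth in response to brassinosteroid, read 8.38 and 8.23 in WT, 10.12 and 10.04 in bin4-1 and 10.01 and 10.03 in bin4-2, a 3.35-fold rise (1.74 ± 0.09, adjusted p = 1.62e-08). SAH7 read 8.70 and 8.72 in WT and 6.65 to 6.97 in the mutants, a 3.75-fold fall (-1.91 ± 0.09, adjusted p = 9.4e-09). EXLA1, an expansin-like gene, rose 1.85-fold, and AT3G28550, an extensin-type gene, was 1.47-fold lower. AT3G28550 read 5.76 and 4.92 in WT, and its change was -0.13 without WT replicate 1 (adjusted p = 0.551). Its call was also lost without bin4-1 replicate 2 (0.0606) or bin4-2 replicate 2 (0.115). EXLA3 passed as higher in bin4-2 (0.47, adjusted p = 0.0148) and missed the threshold in the mean (0.27 ± 0.12, adjusted p = 0.0822), which it passed without bin4-1 replicate 2 (0.0107). EXPA21, EXPA24 and CSLC04 did not pass, though CSLC04 passed as lower under 4 alternatives (adjusted p from 0.0314 to 0.0428).

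Chromatin, replication and repair genes changed by less than 2-fold. Of 5 measured, 1 was higher and 2 lower in bin4-1, 2 higher and 3 lower in bin4-2, and 1 higher (20.0%) and 3 lower (60.0%) in the mean, beside a background of 23.2% higher and 28.8% lower. NERD, which acts in small-RNA-directed DNA methylation, read 4.42 and 4.53 in WT and 4.95 to 5.06 in the mutants, a 1.45-fold rise (0.53 ± 0.09, adjusted p = 0.000321). SAMBA, a regulator of the anaphase-promoting complex, read 5.41 and 5.65 in WT, 4.58 and 4.52 in bin4-1 and 4.60 and 5.20 in bin4-2, a 1.75-fold fall (-0.81 ± 0.15). The histone chaperone gene ASF1B fell 1.20-fold and AT5G26680, the flap endonuclease FEN1, 1.25-fold. Leaving out WT replicate 2 or bin4-1 replicate 1 ended the call of ASF1B (adjusted p = 0.0942 and 0.0726), and leaving out WT replicate 1 that of AT5G26680 (0.0703). The histone H2B gene HTB11 gave 0.22 in the mean and missed the threshold (adjusted p = 0.0566). It passed as higher in bin4-2 (0.27, adjusted p = 0.0434), and in the mean under 6 alternatives (adjusted p from 0.00678 to 0.0474).

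Cytosolic ribosomal protein genes passed in both directions. Of 6 measured, 2 were higher and 4 lower in bin4-1 and in the mean, and 2 were higher and 3 lower in bin4-2. In the mean this was 33.3% higher and 66.7% lower, beside a background of 23.2% higher and 28.8% lower. AT3G28500, an acidic stalk protein gene, read 4.20 and 4.30 in WT and 5.34 to 5.63 in the mutants, a 2.36-fold rise (1.24 ± 0.09, adjusted p = 2.91e-07). AT3G44590, another stalk protein gene, read 9.25 and 9.36 in WT and 8.65 to 8.88 in the mutants, a 1.43-fold fall. AT5G39850 rose 1.85-fold, and AT3G28900, AT3G47370 and AT2G16360 fell 1.49-fold, 1.28-fold and 1.18-fold. The call of AT3G47370 was lost without WT replicate 2 (adjusted p = 0.0767), and that of AT2G16360 without any 1 of 5 arrays (adjusted p up to 0.137, without bin4-1 replicate 2). AT2G16360 was also lost with quantile normalization (0.193), log2 of the value plus 16 (0.0985) and an intensity trend (0.0906). The same held with array medians subtracted (0.0705) and with the replicate block (0.0515). Of 3 measured transcription, hormone and clock genes, AT1G44830, a factor of the ERF family, rose 2.23-fold and the gibberellin receptor gene GID1C 1.31-fold in the mean. YUC6, for auxin synthesis, gave -0.29 ± 0.14 and did not pass, although it passed as lower without WT replicate 2 (-0.55, adjusted p = 0.00342).

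Other large changes stood at the head of single flanks. AT3G46280, related to receptor kinases, read 5.27 and 4.87 in WT, 8.03 and 7.96 in bin4-1 and 7.70 and 7.56 in bin4-2, a 6.68-fold rise. AT2G15220 rose 6.46-fold, to 7.15 and 7.18 in bin4-1 and 6.44 and 6.55 in bin4-2, by a probe set that may detect more than 1 transcript. AT5G25930, a leucine-rich repeat receptor-like kinase, rose 4.67-fold from 4.80 and 4.91 in WT. Among falls, AT1G44920 went from 7.96 and 7.98 to between 5.91 and 6.13, 3.94-fold, and AT5G27290 fell 4.76-fold. The methyltransferase gene AT5G37990 fell 4.25-fold.

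Directions were compared between neighbouring members. Of 1118 pairs of adjacent measured flank genes, 49 were both higher (4.38%), 93 both lower (8.32%) and 69 opposite (6.17%). In the arms 7.43% of pairs were both higher, 9.03% both lower and 14.5% opposite, and in the cores 0.701%, 7.09% and 2.54%. These shares follow from how many genes pass in each region as well as from their order, and no test was made. Runs of at least 3 adjacent genes passing in 1 direction numbered 11 for rises and 18 for falls, and runs of at least 4 numbered 1 and 6. Runs were not counted in the arms or cores, so no background stands beside these numbers. Whether they exceed what the share of passing genes alone would give was not tested.

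The longest run lay in the left flank of chromosome 5, where 7 measured genes from AT5G26270 to AT5G26570 were all lower among 14 RefSeq genes. AT5G26280 read 6.87 and 6.83 in WT, 5.41 and 5.54 in bin4-1 and 5.18 and 5.46 in bin4-2, a 2.73-fold fall (-1.45 ± 0.10, adjusted p = 2.06e-07). AT5G26270 fell 2.54-fold, PWD 2.17-fold, AT5G26330 2.03-fold, the chaperonin subunit gene AT5G26360 1.53-fold, the lignin-precursor glucosyltransferase gene UGT72E3 1.40-fold and AT5G26350 1.29-fold. The run thus joins genes without a shared family. A run of 5 falls in the right flank of chromosome 3, AT3G44850 to AT3G44970, ranged from -1.09 to -0.30 in log2 change and ended with the cytochrome P450 gene AT3G44970. PRK and LrgB stood in a run of 4 falls, AT1G32040 to AT1G32090, whose other members AT1G32040 and AT1G32090 changed by -0.34 and -0.49. Further runs of 4 falls were AT1G31460 to AT1G31510 (-0.42 to -0.34), AT2G14860 to AT2G14910 (-1.74 to -0.47) and AT3G29330 to AT3G29410 (-1.41 to -0.47). Each of these runs of falls except AT2G14860 to AT2G14910 held a small fall that missed the threshold without 1 WT array: AT5G26350 without replicate 1 (adjusted p = 0.177), AT3G44850 without replicate 2 (0.189), AT3G44950 without replicate 2 (0.144), AT3G44960 without replicate 1 (0.0757), AT1G32040 without replicate 1 (0.0561), AT1G31500 without replicate 2 (0.19), AT1G31490 without replicate 2 (0.0516), AT1G31510 without replicate 1 (0.151) and AT3G29330 without replicate 2 (0.097). AT1G31510, AT3G44850 and AT3G44950 were also lost without 1 or more mutant arrays.

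Some bright probe sets of the flanks gave no call. AT1G32460 read 8.89 and 8.94 in WT, 8.78 and 8.94 in bin4-1 and 8.79 and 8.90 in bin4-2, and the groups overlapped. Its change was -0.06 with a 95% interval of -0.26 to 0.14. SPR1, a microtubule-associated protein for straight growth, gave -0.20 (interval -0.40 to 0.01), with all 4 mutant arrays below both WT arrays. It passed as lower with an intensity trend (adjusted p = 0.0108) and with log2 of the value plus 16 (0.0396). AT4G09830 gave 0.12 (-0.08 to 0.31) and the glutamyl-tRNA synthetase gene AT5G26710 -0.10 (-0.31 to 0.11). The intervals bound these changes to less than 1 log2 unit and do not show that the genes were equal.

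The 2 alleles were close to each other. Between bin4-2 and bin4-1, 2 of 1128 flank genes were higher and 2 lower (0.177% each way), where the background was 0.12% and 0.127% of all genes. At an unadjusted p below 0.05, 62 of the 1128 flank genes differed, and over all genes 6.8% did. AT1G47400, an iron-uptake signalling peptide gene (IMA1, FEP3), read 5.72 and 5.68 in WT, 5.41 and 5.12 in bin4-1 and 6.14 and 6.26 in bin4-2. It lay below WT in bin4-1 (-0.44 ± 0.12, adjusted p = 0.00934) and above WT in bin4-2 (0.50, adjusted p = 0.00424), and the difference between alleles was 0.94 ± 0.12 (adjusted p = 0.00758).

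AT3G45160 read 8.41 and 8.07 in WT, 4.36 and 4.73 in bin4-1 and 5.76 and 5.52 in bin4-2. It fell in both alleles and stood higher in bin4-2 by 1.09 ± 0.15 (adjusted p = 0.0147). AT5G26270 read 5.75 and 5.58 in WT, 4.73 and 4.72 in bin4-1 and 3.89 and 3.95 in bin4-2, and was lower in bin4-2 than in bin4-1 by 0.80 on the log2 scale (-0.80 ± 0.11, adjusted p = 0.00941). AT5G40020, a gene of the thaumatin family, read 5.45 and 5.41 in WT, 6.16 and 6.14 in bin4-1 and 5.39 and 5.54 in bin4-2. It was higher than WT in bin4-1 (0.72 ± 0.10), gave 0.04 in bin4-2 and differed between the alleles by -0.68 ± 0.10 (adjusted p = 0.0208). Each of the 4 calls was lost on leaving out at least 1 mutant array: the highest adjusted p was 0.131 for AT1G47400, without bin4-2 replicate 2, and 0.19 for AT3G45160, 0.144 for AT5G26270 and 0.232 for AT5G40020, without bin4-2 replicate 1.

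**Figure D5:**
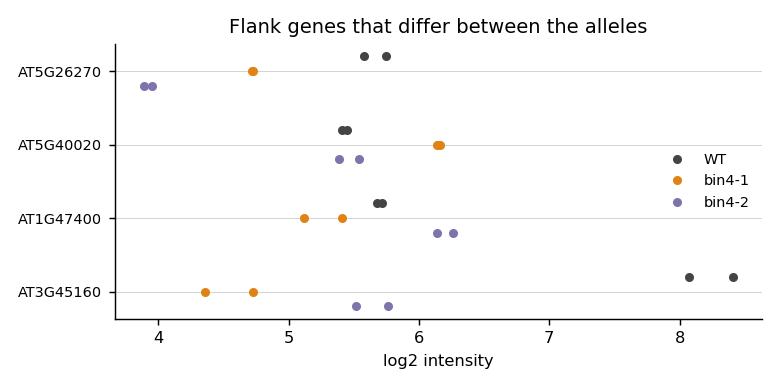
Log2 intensity on each of the 6 arrays (horizontal axis) for the 4 flank genes that passed between bin4-2 and bin4-1, with 1 point an array and colour for the genotype. In each gene the 2 arrays of bin4-1 do not overlap with the 2 of bin4-2, and in AT1G47400 WT lies between the alleles.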

How the data were processed

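The total RNA carried a biotin label, per the labels' protocols. The deposited values are linear intensities, made by the authors with RMA per the submitters' processing notes (version: not given in the sources used here). Of 22810 probe sets, 13513 listed 1 gene and 13484 of these matched RefSeq (assembly TAIR10.1, for names and order only, since the files name no build). For 147 genes with several probe sets the brightest was kept. Log2 values of the 6 arrays were fitted with limma 3.58.1 in R 4.3.3 (3 group means, eBayes), and p-values were adjusted by Benjamini-Hochberg over 13355 genes with a threshold of 0.05, two-sided. The fit was tested on simulated data. Errors after ± are limma's SE. No background cutoff was applied, so the size of changes at low signal is uncertain. Plots used Python 3.11.15 and matplotlib 3.10.9.

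Members, windows, lists, markers and tests were chosen with earlier results of these data known. Named genes are the 8 largest rises and 8 largest falls of an allele, the 2 largest each way in a flank, genes passing between alleles, measured list members, the 5 brightest that did not pass, and runs of at least 4. The largest changes needed all mutant arrays of the comparison beyond both WT arrays. Alternatives concerned low values, normalization, variance prior, log scale, features, arrays in the fit, the replicate block, pseudogenes and shared probe sets. Same-numbered arrays did not deviate together (correlations 0.0774, -0.00324 and -0.045). Chromatin and sequencing experiments named in the design text were not analysed here.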

Additional observations from a re-analysis of the deposited data

Results flagged for a closer look

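The difference between bin4-2 and bin4-1 itself passed the test (limma, adjusted over all genes) in 4 flank genes. On the log2 scale, bin4-2 minus bin4-1, it was 1.09 for AT3G45160 and 0.94 for AT1G47400, -0.80 for AT5G26270 and -0.68 for AT5G40020. AT1G47400 was the one of these 4 with opposite directions against WT, at -0.44 in bin4-1 and 0.50 in bin4-2. For AT5G26270 and AT5G40020 the call was lost whichever of the 4 mutant arrays was left out. With log2 of the value plus 16, AT3G45160 was also lost (adjusted p = 0.108).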

How the results depend on the processing

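Over the 1820 values that 15 alternatives gave for the 130 named genes, 63 lost the call and 17 gained one, in 25 genes. The sign turned in 11 values, none of them a call. Keeping only genes with a mean log2 value of at least 5 left 288 flank genes, so fewer could pass: 109 higher and 112 lower in bin4-1 (median log2 change -0.06), 106 and 117 in bin4-2 (-0.07), 113 and 119 in the mean (-0.06). In the mean these were 39.2% and 41.3% of the genes kept, beside a background of 41.3% and 35.4%, and rises made up 48.7% of called flank genes in place of 35.4%. In this filter 4 of the 6 arrays averaged are mutant arrays, so a gene low in WT can pass through them. How far this changed the share of rises was not tested. Keeping genes whose midpoint of WT and mutant means was at least 5 gave 97 and 117, 95 and 123, and 100 and 125. With the midpoint, rises made up 44.4% of called flank genes in the mean of both alleles. The median became -0.05, -0.04 and -0.04 with quantile normalization and -0.04 in all 3 comparisons with log2 of the value plus 16. Between the alleles, an intensity trend in the variance prior gave 10 higher and 5 lower, and fitting only the groups compared gave 4 lower. The cause of these shifts was not tested. Leaving out 1 array gave 140 to 168 higher and 186 to 257 lower in bin4-1, 145 to 158 and 219 to 265 in bin4-2, 161 to 171 and 259 to 303 in the mean, and 0 to 2 and 0 to 4 between alleles. The medians then ran from -0.12 to -0.10, -0.15 to -0.08, -0.13 to -0.09 and -0.03 to 0.01. With the replicate block the mean of both alleles had 173 higher and 307 lower, and the pairing had no basis in the labels. Leaving out pseudogenes or shared probe sets, both chosen after seeing the data, gave 168 and 280, or 166 and 304. With 2 arrays a group, small changes and low signals are the least certain.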
